A study of Mus musculus with 6 samples.

Results

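The miR-297, miR-466, miR-467 and miR-669 families, together with miR-1187 and miR-3082, were examined in livers of mice treated with carbon tetrachloride (CCl4). Every mouse miRNA on the array whose name begins with 1 of these numbers was taken, which gave 64 of the 1247 mouse miRNAs measured. Of the 64, 3 belong to miR-297, 23 to miR-466, 12 to miR-467, 23 to miR-669, 1 is miR-1187 and 2 are the arms of miR-3082. All mice were C57BL/6 males that had 2 intraperitoneal injections per week over 10 weeks, starting when they were 7 weeks old. For the 3 mice of the CCl4 group each injection held 0.6 mL/kg of CCl4, which damages hepatocytes, dissolved in corn oil. For the 3 mice of the control group it held the oil alone in equal volume. Total RNA of each liver was labeled with Cy3, a fluorescent dye, and read on a separate array. Since whole liver was used, more cells of a type and more RNA per cell cannot be told apart.

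MicroRNAs are short RNAs cut from hairpin precursors, and either strand of the hairpin, the 5p or the 3p arm, can be loaded into the silencing complex. Bases 2 to 8 of the mature strand, the seed, carry most of the pairing with target mRNAs. In the mouse, many hairpins of the miR-297, miR-466, miR-467 and miR-669 families lie in a large intronic repeat cluster of Sfmbt2, a Polycomb-related gene that is imprinted and active in the placenta. Their strands are built from alternating UG and CA bases, and related copies are scattered over other chromosomes.

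The mature sequences below show these repeats, with the seed in capitals. They came from RefSeq on assembly GRCm38.p6, which held the mature strand of 10 of the 64 members, and all 10 seeds were distinct. The hairpins of these 10 all lie outside Sfmbt2. No sequence of a member with a copy within Sfmbt2, or of miR-297, was examined. The first 3 are members that were higher in the CCl4 group, miR-466k and miR-466j are members that were not detected, and miR-574-5p is an miRNA outside these families that is shown because it carries the same repeat.
miR-1187: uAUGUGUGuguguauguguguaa
miR-3082-5p: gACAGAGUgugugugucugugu
miR-669n: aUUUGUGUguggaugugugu
miR-466k: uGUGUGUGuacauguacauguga
miR-466j: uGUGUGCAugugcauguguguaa
miR-574-5p: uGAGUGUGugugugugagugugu

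Members of the same families with CA repeats are given next, for comparison. The first 3 were detected and miR-467g was not.
miR-467f: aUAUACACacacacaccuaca
miR-466q: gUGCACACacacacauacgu
miR-466i-3p: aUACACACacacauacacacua
miR-467g: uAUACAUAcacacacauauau

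The sequence of miR-466i-5p, a member described below that rose with CCl4, was not among those used here. Runs were counted on the mature strand as uninterrupted alternation of U and G, or of C and A, starting at either base. A UG run of at least 8 bases was held by 4 of the 10 members with a sequence and by 5 of the 1007 other miRNAs with one, which is 0.885% of all 1017. A CA run of that length was held by 4 of the 10 members and by 0 of the other 1007. Since such repeats are typical of these families, the counts are only a description. They cover the 10 members with a sequence, all outside Sfmbt2, and not the families as a whole.

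Before the members are compared, 1 array needs mention. The third CCl4 array stood apart from the other arrays of its group. Its rank correlation with them over all miRNAs was 0.764 and 0.751, against 0.961 between the other CCl4 arrays. The total signal of miR-122-5p, the main hepatocyte miRNA, was as low as 2158 there. It reached 13110 and 15544 with the other CCl4-treated livers, and 17855, 16613 and 18345 with the control livers. The fitted changes of the members are therefore given with and without this array. The 6 arrays shared 1 slide, with the CCl4 arrays in row 1 and the corn oil arrays in row 2, so that slide position and treatment cannot be told apart.

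Most of the 64 members were at background in the liver. As over the whole array, more of them were detected on CCl4 arrays than on corn oil arrays. Detection is the call of the scanner software for a miRNA on an array. It was set for 13 of the 64 members on at least 1 array, which is 20.3%, against 365 of all 1247 miRNAs, 29.3%. The corn oil arrays detected 5, 3 and 5 members, and the CCl4 arrays detected 10, 9 and 11. The shares were 7.81%, 4.69% and 7.81% of the members with the 3 control livers, and 15.6%, 14.1% and 17.2% with the treated livers. Over all miRNAs the shares were 15.5%, 14.9% and 15.0% with the 3 control livers, and 19.6%, 18.2% and 26.8% with the treated livers. Both the members and the array as a whole thus had more miRNAs detected on each CCl4 array than on any corn oil array. Detection on at least 1 CCl4 array and no corn oil array was found for 7 of the 64 members, 10.9%. Over all 1247 miRNAs it was found for 158, 12.7%.

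By family, no member of miR-297 was detected on any array. In miR-466, 2 of 23 were detected on at least 1 corn oil array and 5 on at least 1 CCl4 array. The corresponding numbers were 1 and 3 of 12 for miR-467, and 1 and 3 of 23 for miR-669. miR-1187 was detected in both groups, and of miR-3082 only the 5p arm was. No member was detected in the corn oil group alone, as 6 of all 1247 miRNAs were.

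**Figure D1:**
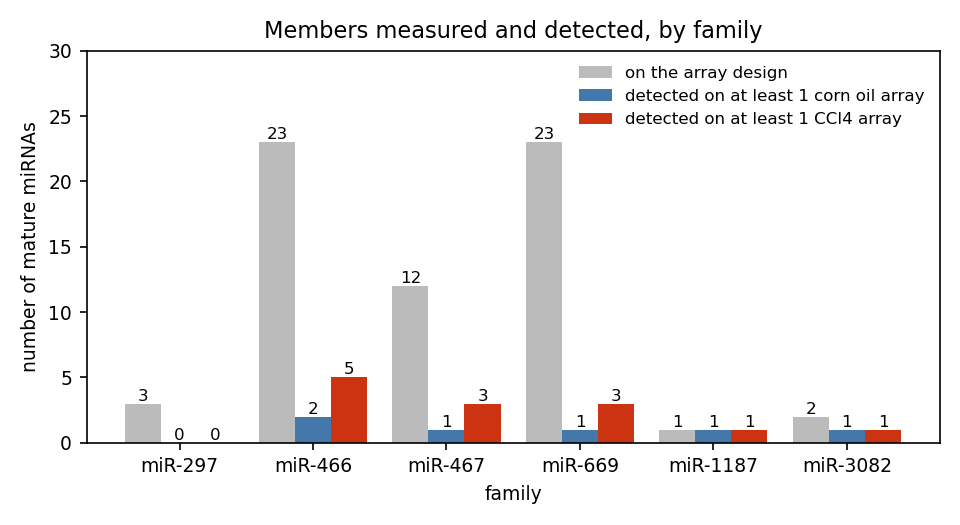
Number of mature miRNAs of each family on the array design (gray) and number detected on at least 1 corn oil array (blue) or CCl4 array (red). In miR-466, miR-467 and miR-669 more members were detected on CCl4 arrays than on corn oil arrays, 5 against 2, 3 against 1 and 3 against 1, and most members of these families were detected on neither. Of all members 10.9% were detected on at least 1 CCl4 array and no corn oil array, against 12.7% of all 1247 miRNAs.

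Detection was also counted by arm. Of 27 members named as 3p arms, 6 were detected on at least 1 array, of 26 named as 5p arms 3 were, and of 11 with no arm in their name 4 were. For 19 hairpins both arms were on the array. Both arms were detected somewhere for 1 of them, miR-466i, the 5p arm alone for 2, miR-3082 and miR-467b, the 3p arm alone for 4, miR-466f, miR-466h, miR-467a and miR-669f, and neither arm for 12. The 5p arm of miR-3082 was detected on all 6 arrays and its 3p arm on none. For miR-466i the 5p arm was also detected on all 6 arrays, and the 3p arm on the first CCl4 array alone, with a total signal of 5.04 and 17.5% of its spots well above background.

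The name of the Sfmbt2 cluster described most members, but not those with the most spots above background. Gene entries of the table for GRCm38.p6 were matched for 63 of the 64 members. All copies lay within the span of Sfmbt2 for 49 members, of which 5 were detected, 0 on all corn oil arrays and 2, miR-466h-3p and miR-669p-3p, on all CCl4 arrays. Of the 11 members whose copies all lay outside Sfmbt2, 7 were detected, 5 of them on all CCl4 arrays. The remaining 3 had copies in both places, and 1 of these, miR-466f-3p, was detected. The hairpin of miR-466i lies within the span of Cdk13, a cyclin-dependent kinase gene, and that of miR-3082 within the spans of Jmjd8 and Stub1, the latter coding for a ubiquitin ligase. miR-669n lies within Slc30a7, a zinc transporter gene, miR-467f within Fxr2, an RNA-binding protein gene, and miR-466q within Tnik, a kinase gene, while no other gene of the table spanned miR-1187. The 4 members with 100% of their spots well above background on each CCl4 array, described next, were all among those outside Sfmbt2. In the comparison of groups below, the members called were these 4. Without the third CCl4 array miR-466h-3p and miR-669p-3p, which lie within Sfmbt2, were also called. The calls of miR-1187, miR-669n, miR-466h-3p and miR-669p-3p carry no weight, since these were admitted to the comparison through the CCl4 arrays alone.

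The comparison of groups used 2 limma fits, each over all miRNAs that met its detection rule. The first took the detection flag on all arrays and quantile normalization from the study's methods, which left 166 miRNAs here where the deposited normalized table holds 111. It held 3 members, miR-466i-5p, miR-3082-5p and miR-467f. The second took the 215 miRNAs detected throughout the corn oil group, the CCl4 group or both, scaled each array to its 75th percentile over the 166, and set lower signals to a common floor, 3.58 on the scaled linear axis. It held 8 members. The 75th percentile itself was 163, 152 and 162 with the 3 control livers and 278, 221 and 723 with the treated livers, so scaling reduced the signals of the CCl4 group the most. Calls required both a fold change above 2 and a p, adjusted by Benjamini-Hochberg over all miRNAs of the fit, below 0.05. In the first fit, 2 of the 3 members were called, both higher in CCl4-treated livers, where 12% of the 166 miRNAs were called in either direction and 7.23% as higher. The groups did not overlap for these 2 members after normalization, as for 14.5% of the 166 with the CCl4 group higher. In the second fit, 4 of the 8 members were called, all 4 higher, where 12.6% of the 215 were called in either direction and 9.3% as higher. The CCl4 group lay above the corn oil group without overlap for 5 of the 8 members and for 22.3% of the 215. Members that reached the second fit through the CCl4 arrays alone were selected for signal there, so the 4 of 8 carries no weight as a count, and neither do the calls of the 5 members that entered in this way, miR-1187, miR-669n, miR-466h-3p, miR-669p-3p and miR-466f-3p, under any setting. Over all miRNAs, the first fit called 12 as higher and 8 as lower, a split of 18 and 0 without normalization, 4 and 0 after normexp background correction, and 9 and 2 when quantile normalization came before the filter. In the second fit the split was 20 and 7, or 17 and 16 with quantile normalization, 48 and 0 with the 75th percentile of the miRNAs detected on each array, and 43 and 0 without normalization. With so few arrays, 3 against 3, an exact two-sided permutation test of a single miRNA cannot give a p below 0.1, so limma's pooled estimate of the spread carries every call.

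miR-466i-5p was the only called member that was measured well in both groups. Its total signal was 46.1, 43.8 and 55.1 with the 3 control livers and 836, 489 and 1786 with the treated livers, and on every array 100% of its spots were well above background. The lowest CCl4 array lay far above the highest corn oil array, and the third CCl4 array was the highest of all. After quantile normalization its mean was 6.34 ± 0.06 on the log2 scale in control livers and 9.36 ± 0.37 in treated livers (SD, n = 3). The log2 difference was 3.02 (standard error 0.22, limma adjusted p = 1.1e-03). In the second fit the difference was 3.07 (standard error 0.19, limma adjusted p = 3.0e-04), an 8.42-fold higher scaled signal. Without the third CCl4 array it was 3.18 (limma adjusted p = 1.8e-03) in the first fit and 3.09 in the second.

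miR-3082-5p was higher in the CCl4 group, from a control level that was barely measured. Its total signal was 4.45, 3.72 and 4.83 with the 3 control livers and 192, 111 and 419 with the treated livers. Its spots well above background made up 10% or less on a corn oil array, and 100% on each CCl4 array. The quantile-normalized log2 mean was 2.41 ± 0.19 in control livers and 6.95 ± 0.42 in treated livers (SD, n = 3), a difference of 4.54 (standard error 0.25, limma adjusted p = 4.0e-04). In the second fit it was 4.44 (standard error 0.19, limma adjusted p = 2.1e-04). Without the third CCl4 array the differences were 4.31 and 4.45. Since the control signal lay near background, the size of the change has only a lower limit and no order among members is read from it. Against the dimmest miRNA still well above background on each corn oil array, the scaled signal of the CCl4 group was at least 8.74-fold higher, and at least 8.79-fold without the third CCl4 array. The total signal also held 1 of its 2 probes on each corn oil array and both on each CCl4 array, because the software leaves out undetected probes.

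miR-1187 was tested in the second fit alone. The total signal was 3.79 and 4.42 on the first corn oil array and the third, not detected on the second, and 141, 80.8 and 299 on the CCl4 arrays. No corn oil array had over 2.5% of its spots well above background, and every CCl4 array had 100%. The scaled log2 mean was 2.50 ± 0.59 in control livers and 6.91 ± 0.24 in treated livers (SD, n = 3). The fitted difference was 4.41 and 4.43 without the third CCl4 array, with 1 control value at the floor, and its p is not given since miR-1187 entered the fit through the CCl4 arrays. As a lower limit, the scaled signal was at least 6.32-fold higher, or at least 6.41-fold without that array.

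miR-669n was detected with each of the 3 CCl4-treated livers and with no control liver, as was miR-466f-3p. This pattern was found for 2 of the 64 members, 3.12%, and for 22 of all 1247 miRNAs, 1.76%. The total signal of miR-669n on the CCl4 arrays was 32.9, 19.7 and 72.6, with 100% of its spots well above background on each. Its scaled log2 mean there was 4.85 ± 0.21 (SD, n = 3), against the floor of 1.84 on all corn oil arrays. The fitted difference of 3.01, or 3.02 without the third CCl4 array, is set by that floor and by the filter, which admitted miR-669n through the CCl4 arrays alone, so it has no p here either. The scaled signal was at least 1.52-fold higher in the CCl4 group, and at least 1.53-fold without that array. With detection judged by more than 50% of spots well above background, 3 members were seen on all CCl4 arrays and no corn oil array, namely miR-1187, miR-3082-5p and miR-669n, which is 4.69% of the 64, against 21 of all 1247 miRNAs, 1.68%.

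**Figure D2:**
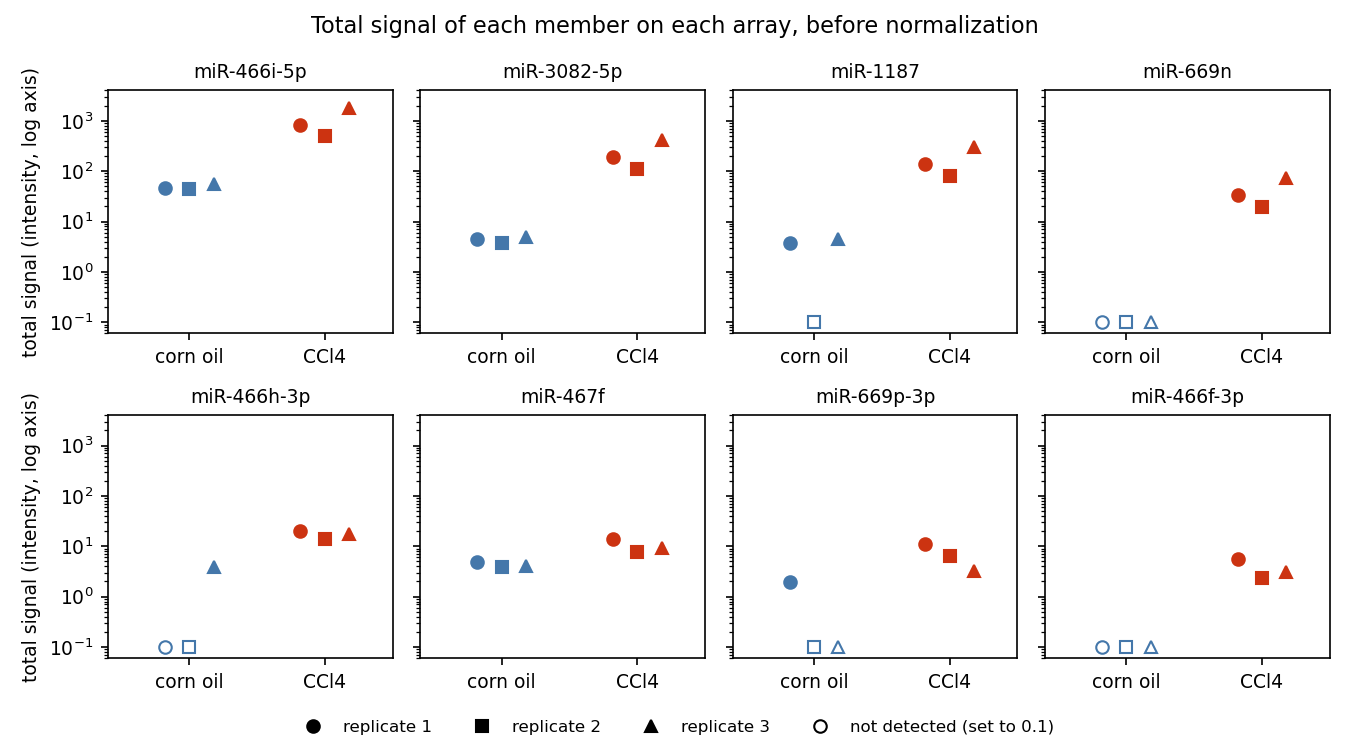
Total signal (intensity, log axis, before normalization between arrays) of the 8 members tested, with 1 symbol for each array, corn oil in blue and CCl4 in red, and open symbols for arrays where the miRNA was not detected and was set to 0.1. In the upper row each CCl4 array lies far above each corn oil array, while the members in the lower row stay below 20 on every array.

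The other 4 members tested were near background on the corn oil arrays and were not called. miR-466h-3p, the member within Sfmbt2 with the highest signal on any array, was not detected on the first and second corn oil arrays and gave 3.91 on the third. Its total signal was 19.9, 13.7 and 17.5 on the CCl4 arrays, with 95%, 65% and 50% of its spots well above background. All 3 CCl4 arrays were above the corn oil arrays in total signal, but the scaled signal of the third CCl4 array, 6.87, was nearly that of the third corn oil array, 6.85. The log2 difference was 1.60 (standard error 0.51), and 2.09 without the third CCl4 array, where it was called. It entered the fit through the CCl4 arrays, and 2 of its control values were at the floor. For this reason no p is given, and that call carries no weight.

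miR-467f, with a CA run of 12 bases, had total signals of 4.83, 3.86 and 4.01 with the 3 control livers and 14.2, 7.78 and 9.17 with the treated livers. Each CCl4 array was higher before normalization, and the groups overlapped after it. The log2 difference was 0.57 (standard error 0.32, limma adjusted p = 0.28) in the first fit and 0.10 (standard error 0.53, limma adjusted p = 0.94) in the second, and it turned negative, to -0.13, with quantile normalization in the second fit. Without the third CCl4 array it was 0.71 in the first fit (limma adjusted p = 0.097) and 0.68 in the second (limma adjusted p = 0.042), which is under a 2-fold change.

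miR-669p-3p, within Sfmbt2, gave 1.93 on the first corn oil array and was not detected on the other corn oil arrays. Its total signal was 11.1, 6.39 and 3.16 on the CCl4 arrays. The log2 difference was 0.95 (standard error 0.44), and 1.43 without the third CCl4 array, where it was called. It entered the fit through the CCl4 arrays and all its control values were at the floor. No p is therefore given, and that call carries no weight. miR-466f-3p gave 5.48, 2.31 and 3.15 on the CCl4 arrays, close to the lowest signals the software accepted. Its difference was 0.21 (standard error 0.23), 0.32 without the third CCl4 array and -0.39 with quantile normalization. miR-466f-3p too entered the fit through the CCl4 arrays, with all control values at the floor, so it has no p either. For none of these 4 members did the limit against background exceed 1, so no fold is given.

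**Figure D3:**
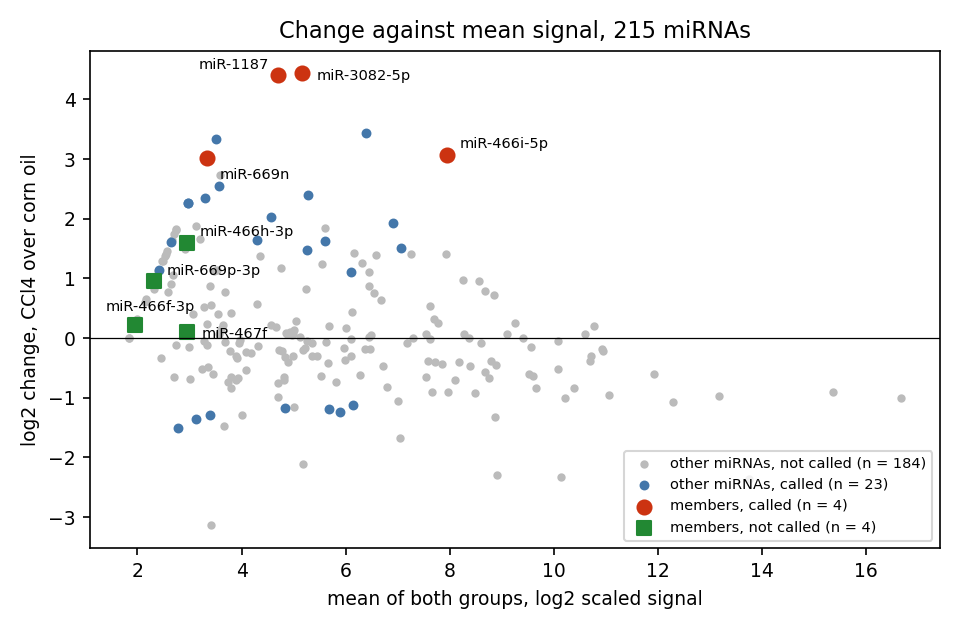
Log2 change, CCl4 over corn oil, against the mean of both group means of the log2 scaled signal for the 215 miRNAs of the second fit. The 4 called members (red) lie between 3.01 and 4.44, which for all but miR-466i-5p rest on control signals at or near background, and the 4 members not called (green squares) lie between 0.10 and 1.60 at low mean signal.

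Because a total signal leaves out undetected probes, the probes themselves were compared, with all probes of a member summed and no normalization. For miR-466i-5p, bright in both groups, the summed signal of the treated livers was 21.5-fold that of the control livers, or 13.7-fold without the third CCl4 array, and its 2 probes taken alone gave 22.0 and 21.0. For the other members no fold is given, since their control signals were near background. The sums of miR-3082-5p were 5.77, 4.47 and 5.90 with the 3 control livers and 192, 111 and 419 with the treated livers. Those of miR-1187 were 5.63, 4.88 and 7.43, against 141, 80.8 and 299, and those of miR-669n 1.12, 0.336 and 1.72, against 32.9, 19.7 and 72.6. In the members not called the step between groups was narrow. It went from between 5.51 and 6.09 to between 13.7 and 19.9 for miR-466h-3p, and from between 6.15 and 7.58 to between 11.7 and 14.2 for miR-467f. miR-669p-3p lay between 4.78 and 5.56 in control livers and between 8.04 and 11.1 in treated livers, and miR-466f-3p between 1.96 and 3.06 and between 4.54 and 6.36. Every probe of the 8 members was higher on each CCl4 array than on any corn oil array, except 2 of the 4 probes of miR-466f-3p. This makes 18 of 20 probes, where 63.9% of the probes of all 215 miRNAs tested did so. Members that entered the fit through the CCl4 arrays alone were selected for signal there, so this count carries no weight either. Before normalization the median log2 change of all 166 miRNAs was itself 0.99. Over the 207 miRNAs detected on every CCl4 array, the median ratio of the third CCl4 array to the second was 2.92. For the summed probes of miR-467f and miR-669p-3p this ratio was 1.217 and 1.255. The cause of their steps was not tested.

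**Figure D4:**
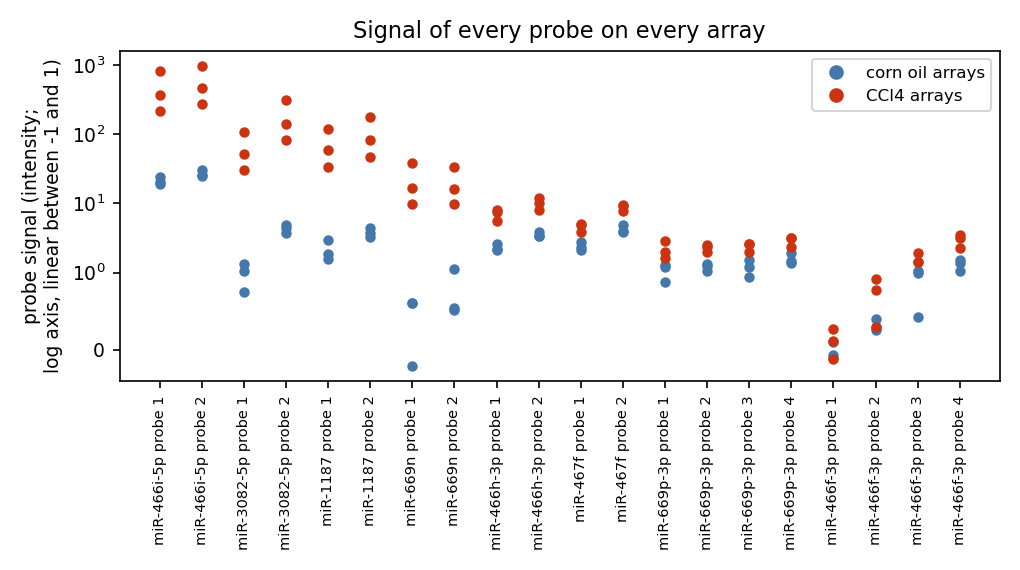
Signal of every probe of the 8 members tested on each array (intensity, not normalized, log axis with a linear part between -1 and 1), corn oil in blue and CCl4 in red. The probes of miR-466i-5p, miR-3082-5p, miR-1187 and miR-669n are separated widely between groups, and those of the other 4 members narrowly or, for 2 probes of miR-466f-3p, not at all.

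The 4 called members kept nearly the same proportions across the CCl4 arrays. The total signal of miR-466i-5p on the first CCl4 array was 1.71 times that on the second, and on the third it was 3.65 times that on the second. These ratios were 1.73 and 3.76 for miR-3082-5p, 1.74 and 3.69 for miR-1187, and 1.67 and 3.69 for miR-669n. Over all 207 miRNAs detected on every CCl4 array, the median of the first ratio was 1.17 (quartiles 1.03 and 1.44) and that of the second was 2.92 (quartiles 1.46 and 5.14). Within 10% of miR-466i-5p on both ratios were 5 of the 207, the 4 called members and miR-574-5p, a tolerance chosen after these values were seen. In the summed probes of the members not called, the ratios ranged from 1.22 to 1.46 and from 1.13 to 1.28. In total signal, which takes in fewer of their probes on some arrays, the first ratio of these members ranged from 1.46 to 2.37, around that of the called members, and the second from 0.49 to 1.36. A call depends in part on the spread among the scaled CCl4 arrays. The split into called and not called members is therefore not independent of these ratios. No test was made of them.

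**Figure D5:**
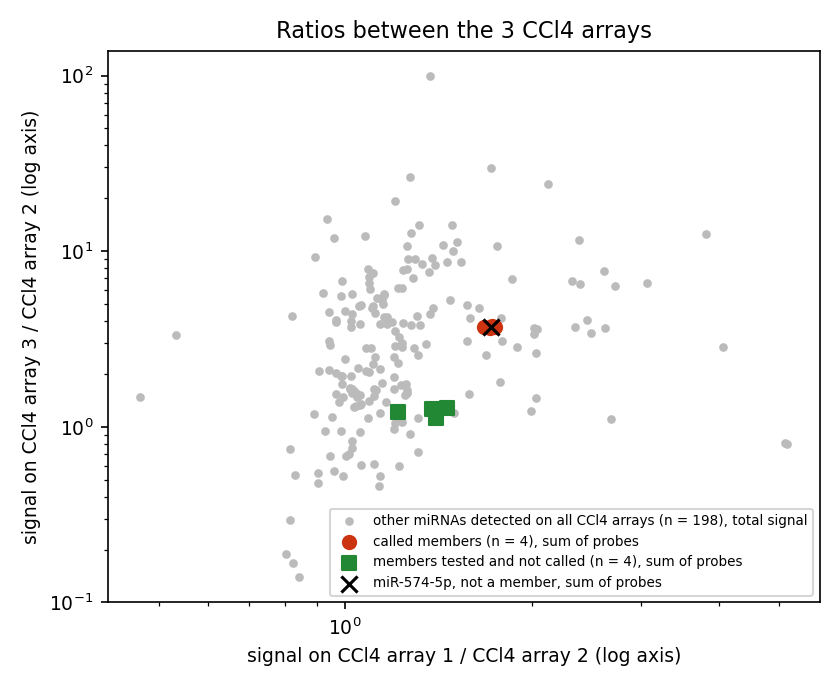
Ratio of the signal on the third to the second CCl4 array against the ratio of the first to the second, both on log axes, for miRNAs detected on all 3 CCl4 arrays. The 4 called members (red) and miR-574-5p (cross) fall on 1 point near 1.7 and 3.7, the 4 members not called (green) lie near 1.4 and 1.2 in the summed probes that are plotted for members, and the other miRNAs (gray) spread widely. The calls depend in part on the spread among the CCl4 arrays, so they are not independent of these ratios.

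miR-574-5p, whose hairpin the gene table places in Fam114a1 and Tlr6, was the 1 miRNA detected on all 6 arrays among the 5 with a UG run of at least 8 bases outside the families, where a sequence was at hand for 1007 miRNAs. Its total signal was 14.1, 12.7 and 16.6 with the 3 control livers and 322, 187 and 696 with the treated livers, with no overlap. The log2 difference was 3.41 (standard error 0.15, limma adjusted p = 2.7e-04) in the first fit, and 3.40 without the third CCl4 array. The longest UG run was 13 bases in miR-574-5p, 11 in miR-1187, 10 in miR-3082-5p and 8 in miR-669n, each with a second run of 6, 7, 5 and 7 bases. Of all 9 miRNAs with such a run, every CCl4 array detected 4, and no array detected 4 others. miR-466k, with a run of 9 bases at its 5′ end and a second run of 4, was not detected, nor were miR-32-3p, miR-3097-5p and miR-6348 outside the families, and miR-672-5p was detected on the third CCl4 array alone. The second runs were looked at after these values had been seen. Whether the probe of 1 UG-rich miRNA also bound another was not tested.

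The 51 members that were never detected had at most 2.5% of their spots well above background on any array. The median of their summed probes was 0.0186, -0.275 and -0.22 with the 3 control livers and 0.77, 0.363 and 1.51 with the treated livers. For the 831 other miRNAs that were never detected it was -0.528, -0.545 and -0.523 with the 3 control livers and -0.536, -0.649 and -0.55 with the treated livers. The median of the undetected members was thus higher on each CCl4 array than on any corn oil array, at a level the software took as background. One by one, the summed probes of 15 of the 51 members were higher on each CCl4 array, 29.4%, and those of 91 of the 831 other miRNAs, 11%. These values are a description with no test, since the members share sequence.

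The sums of marker miRNAs of liver cell types also differed between arrays, and not all in the same order. Of the hepatocyte list, 4 of 5 were detected on all arrays, and its summed total signal, mostly miR-122-5p, was 20449, 18947 and 20847 with the 3 control livers and 14955, 17730 and 2750 with the treated livers, with miR-122-3p not detected on the third CCl4 array. The sum of 6 immune miRNAs, of which 3 were detected throughout and miR-223-3p, a myeloid miRNA, was the most abundant, was 91.0, 77.7 and 90.7 in control livers and 475, 346 and 457.5 in treated livers. miR-150-5p and miR-155-5p of this list were not detected on any corn oil array. The 6 mesenchymal miRNAs on the array, of which 4 were detected throughout and miR-199a-3p, a stellate cell miRNA, was the most abundant, summed to 82.0, 67.2 and 109 in control livers and 643, 255 and 1236 in treated livers. miR-145a-5p was not detected on any corn oil array. The red cell pair, mostly miR-451a, summed to 465.97, 754 and 699.7 in control livers and 730, 315 and 2135 in treated livers. Among the CCl4 arrays, the immune sum was highest on the first and the hepatocyte sum on the second. As with the 4 called members, the mesenchymal and red cell sums were highest on the third CCl4 array and lower on the second than on the first. The 75th percentile over the 166 miRNAs, 278, 221 and 723 on the CCl4 arrays, had the same order. Their part in the change of the members was not tested.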

How the data were processed

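Total liver RNA of 6 mice was profiled on 1-color Agilent mouse miRNA arrays (release 19.0). The scanner output that the authors deposited holds an intensity for each spot and a total signal for each miRNA, made with Agilent Feature Extraction 11.0.1.1, after background subtraction and without scaling of 1 array to another. The software sums the detected probes and sets an undetected miRNA to 0.1. The authors also deposited quantile-normalized intensities of 111 miRNAs, 2 of them members, whose corn oil columns 1, 2 and 3 have the rank order of scanner arrays 2, 3 and 1. They were used as an alternative. Control spots were left out. Groups and replicate numbers came from the sample labels.

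Log2 signals were fitted in R 4.3.3 with limma 3.58.1 (lmFit, eBayes), with treatment as the only term, and were checked on simulated data. Python 3.11.15 with pandas 2.3.3, numpy 2.4.6 and matplotlib 3.10.9 was used for tables and plots. Where no corn oil array had over 50% of a miRNA's spots well above background, a lower limit of the fold was computed. From the mean log2 scaled signal of the CCl4 group it subtracts a mean over the corn oil arrays, each entering with the miRNA's signal or, if this was lower, with the dimmest signal well above background of that array. Runs of at least 8 bases were counted. The text names members called in either fit, detected on all 6 arrays or on all CCl4 and no corn oil arrays, the brightest of the others, and marker miRNAs. Further detected members, and undetected members with a sequence, were named after their values were seen. The members, lists and tests were chosen with earlier results of these data known. Alternatives left out each array in turn, added the replicate number as a block, let eBayes follow a trend, and changed the normalization, the filter, the floor or the source of the values. Normexp (offset 50) used the median spot signal, since a mean signal column was not among those used here, and this and the sum of all probes were chosen after seeing the data. The gene table is of another build than the one named by the scanner files, so no coordinates are given.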

Additional observations from a re-analysis of the deposited data

Results flagged for a closer look

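Signal appeared outside the comparisons for 5 members that neither fit could take up. Some CCl4 arrays detected them, and no control array did. Detection on at least 1 CCl4 array and no corn oil array was found for 10.9% of the 64 members and 12.7% of all 1247 miRNAs. miR-466q, within Tnik, had a total signal of 6.62 on the first CCl4 array, with 27.5% of its spots well above background, and 5.17 on the second. miR-466i-3p, the partner strand of miR-466i-5p, had 5.04 on the first CCl4 array alone. The third CCl4 array alone detected miR-467a-3p at 3.42, miR-467b-5p at 5.77 and miR-669f-3p at 5.85, all within Sfmbt2, with 2.5% or less of the spots of each well above background. That array alone detected 111 of the 1247 miRNAs.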

How the results depend on the processing

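The call held for miR-466i-5p in 16 of 16 alternatives of the first fit (log2 change 2.49 to 4.23). In the second fit it held in 13 of 13. For miR-3082-5p it held in 14 of 14 (1.76 to 5.59) and 13 of 13. The 14 leave out the filter on the share of spots well above background, which miR-3082-5p did not pass in control livers. They also leave out the deposited values, which did not hold miR-3082-5p. Its call was therefore not tested in either setting. The fitted changes of miR-1187 ranged from 3.52 to 5.38 and those of miR-669n from 2.01 to 3.79, where the filter had selected for signal in the CCl4 group. With normexp miR-3082-5p stood at 1.76, below miR-466i-5p at 2.49 and miR-574-5p at 2.07. Among the alternatives of the members that were not called, 2 of miR-466f-3p gave a change of 0 (floor 2 times as high, and without CCl4 replicate 1). A call was gained in 5, and 8 turned the sign. As above, calls of members admitted through the CCl4 arrays alone carry no weight. The gained calls were those of miR-466h-3p with each array's detected miRNAs (2.40), without normalization (2.41) and without CCl4 replicate 3, of miR-467f without normalization (1.25) and of miR-669p-3p without CCl4 replicate 3. With the sum of all probes miR-466h-3p was 0.37. miR-467f turned to -1.69 with quantile normalization before the filter and -0.49 with no filter, and in the second fit to -0.13 with quantile normalization, -0.14 with the sum of all probes, -0.33 without CCl4 replicate 1 and -0.05 without CCl4 replicate 2 (-0.33 to 0.68 with 1 array left out). miR-466f-3p turned to -0.39 with quantile normalization, and miR-669p-3p to -0.24 with the sum of all probes. The cause was not tested.

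The first fit called 1 member where over 50% of spots had to be well above background and 1 in the deposited values, which tested 1 and 2 members, and 3 with no filter, which tested all 64. All its calls, 20 of 166, became 11 with quantile normalization before the filter, 4 with normexp, 6 with no filter, 7 with the spot rule, 6 with the replicate block and 12 in the deposited values. With 1 array left out they ranged from 5 to 28, namely 7, 5 and 6 when corn oil replicate 1, 2 or 3 was left out, 5 when CCl4 replicate 1 was and 28 when CCl4 replicate 3 was. The 27 calls of the second fit became 48 with the 75th percentile of each array's detected miRNAs, 43 without normalization, 12 with detection on at least 1 array and 10 with the replicate block, and 8 to 46 with 1 array left out, namely 12, 8 and 10 when corn oil replicate 1, 2 or 3 was left out, 13 when CCl4 replicate 1 was and 46 when CCl4 replicate 3 was. Of the 8 members, 6 were called in that last setting, 6 without normalization, 5 with each array's detected miRNAs and 4 in the other settings. Without normalization the median change of all 166 was 0.99 instead of -0.14, and miR-466i-5p stood at 4.23. In the second fit the median of all 215 was 1.09 without normalization and 0.75 with each array's detected miRNAs, instead of 0. Same-numbered arrays of the groups correlated at -0.18, 0.11 and 0.03 in their deviations, and differently numbered arrays at -0.27 to 0.24. With so few arrays this cannot tell whether the numbers pair the livers. With the numbers as a block the same counts of members, 2 and 4, were called.

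Members with few spots above background carry only limits, 3 arrays a group bound every value, and slide row went with treatment. Normexp on the mean spot signal was not run.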
